A study of Rattus norvegicus with 8 samples.

Results

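Amino acids and the transmitters made from them cross membranes on carriers of the solute carrier (Slc) families, and the carriers described here were all rows of the expression table whose single gene symbol belonged to the families Slc1, Slc3, Slc6, Slc7, Slc17, Slc18, Slc32, Slc36, Slc38 or Slc43, together with the choline carrier Slc5a7. The rule found 50 rows, for 49 genes, among the 8793 rows of the table. Slc7a12 had 2 rows and every other gene had 1. No Slc43 gene was among them, and the cystine carrier Slc7a11 is not named for a single row in the table used here.

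The tissue was whole spinal cord of female virgin Lewis rats, labelled as 16 weeks old, with 1 exon array for each rat. In the MBP-EAE group (rats 217, 218, 219 and 241), experimental autoimmune encephalomyelitis (EAE), an inflammatory disease of the central nervous system used as a model of multiple sclerosis, had been induced by an injection of 50 µg of myelin basic protein (MBP) under the skin at the base of the tail, in incomplete Freund's adjuvant with killed mycobacteria. The healthy control group (rats 193, 194, 195 and 196) consisted of untreated littermates of the same age, whose cords were taken at the same time, on day 13, which lies near the peak of the disease in this model. The controls received no adjuvant, so that the effects of MBP and of adjuvant cannot be told apart. The study's methods give a younger age than the labels and call the MBP recombinant, while the labels say that it came from guinea-pig brain. Values are log2 intensities as deposited, and the values of single rats are given in the order 217, 218, 219, 241 for MBP-EAE and 193, 194, 195, 196 for healthy control. A row was called when its p-value from limma, a linear model that moderates the variance of each row by that of all rows, was under 0.05 after Benjamini-Hochberg adjustment over all 8793 rows.

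The carriers fall into several roles. Plasma membrane carriers of the Slc1 and Slc6 families use the sodium gradient to clear glutamate, GABA, glycine and monoamines from the extracellular space, and in spinal cord much of the glutamate and GABA is taken up by astrocytes. Vesicular carriers of the Slc17, Slc18 and Slc32 families use a proton gradient to load transmitter into synaptic vesicles, so that most of them mark neurones by transmitter. Slc32a1 loads both GABA and glycine, and the lysosomal Slc17a5 and the endocrine Slc18a1 are exceptions. Light chains of the Slc7 family pair with a heavy chain of the Slc3 family and exchange 1 amino acid for another, whereas the cationic carriers of the same family bring in arginine and lysine without a heavy chain. The Slc36 and Slc38 families carry small neutral amino acids and glutamine, at the cell surface and on lysosomes.

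The carriers with the largest rises in MBP-EAE were the amino acid exchanger Slc7a7 (2.46-fold), the arginine carrier Slc7a2 (2.32-fold) and the glial glutamate carrier Slc1a3 (2.22-fold). Among the called carriers, the largest falls were those of the serine and glycine exchanger Slc7a10 (2.38-fold), the neuronal carrier Slc6a15 (1.87-fold) and the choline carrier Slc5a7 (1.72-fold). The GABA carrier Slc6a11 was 1.82-fold lower but was not called (adjusted p 0.0591). In all, 15 of the 50 rows (30.0%) were called, compared with 25.9% of all rows. Higher values were called in 9 rows (18.0%), compared with 11.3% of all rows, and lower values in 6 (12.0%), compared with 14.6% of all rows. The median log2 fold change was -0.14 over the 50 rows, with a range of -1.25 to 1.30, and -0.10 over all rows. The 4 MBP-EAE values lay wholly above the 4 healthy values in 8 rows (12.0% of all rows did so) and wholly below them in 6 rows (17.3% of all rows), where 29.3% of all rows showed no overlap in either direction. Among the 15 called rows 13 did not overlap between the groups, and Slc6a6 and Slc5a7 were called with overlap. A call and a lack of overlap rest on the same values and tend to go together. The share without overlap was not counted among all called rows, so that the 13 show nothing particular to the carriers. Spinal cord is a mixture of cells, and in such bulk samples a change in the number of cells of a type and a change in RNA per cell cannot be told apart.

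**Figure D1:**
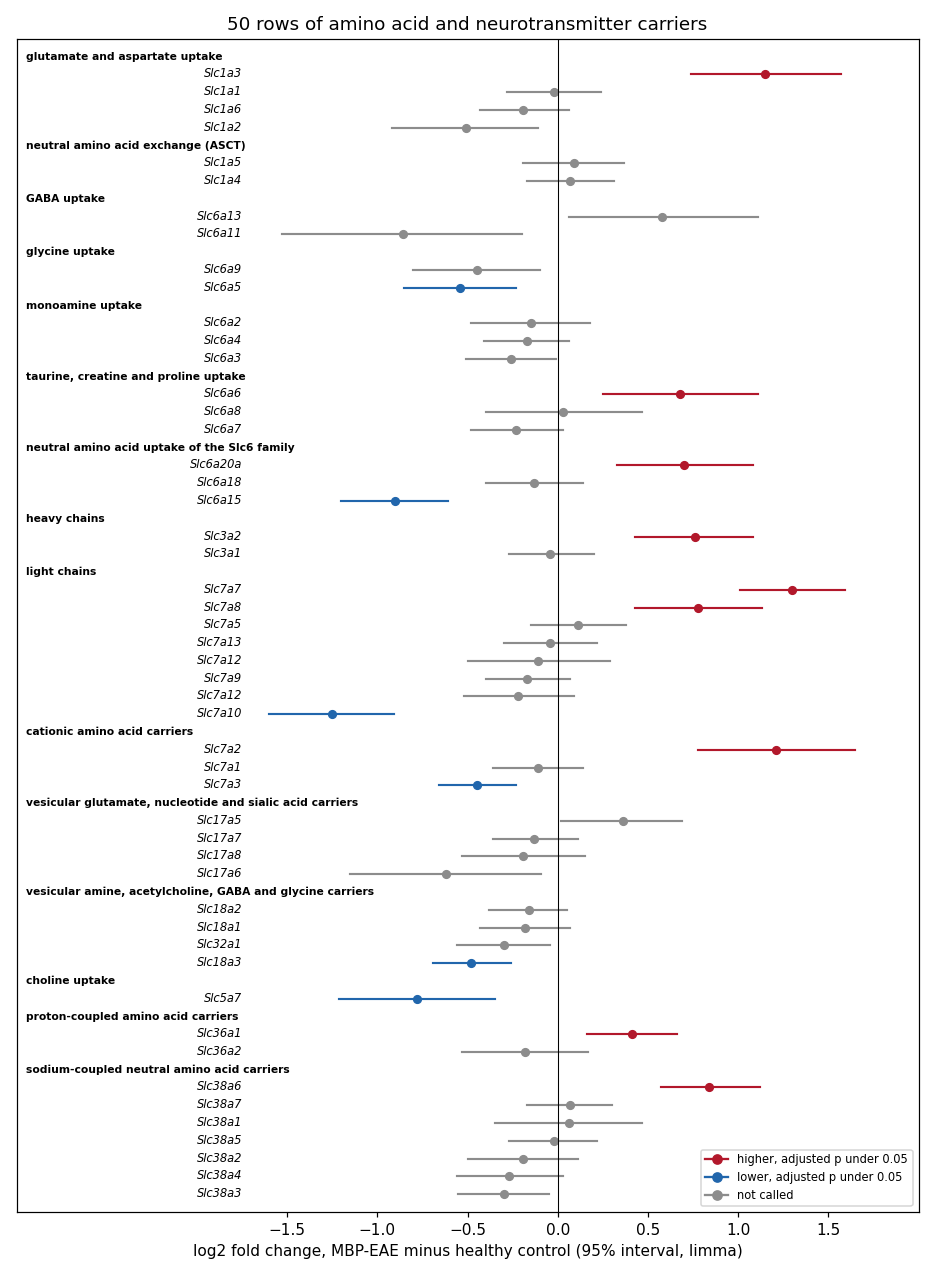
Log2 fold change (MBP-EAE minus healthy control) of the 50 carrier rows with the 95% interval from limma on the horizontal axis, by role; red points are called higher, blue points called lower and grey points not called. Slc7a7 (1.30) and Slc7a10 (-1.25) mark the ends of the range, and 33 of the 50 rows lie below 0, where 5667 of all 8793 rows did.

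The cell types of the tissue were checked with lists of marker genes. All 11 microglia and macrophage markers were higher in MBP-EAE, and their summed linear signal was 8450 to 10200 in MBP-EAE rats, against 573 to 853 in healthy rats. Of 6 T cell markers 5 were higher, with sums of 559 to 678 in MBP-EAE rats and 101 to 132 in healthy rats. Of 11 neuronal markers 6 were lower and none higher, with sums of 12300 to 14200 in MBP-EAE rats, against 16000 to 18600 in healthy rats. Oligodendrocyte markers were lower in 7 of 12 rows, and astrocyte markers were mixed (Gfap and Gja1 higher, Fgfr3 lower, 5 of 8 not called), with sums of 6870 to 9990 in MBP-EAE rats and 6020 to 10200 in healthy rats. All 5 dorsal root ganglion markers were dim in both groups. Fibroblast markers of the meninges and vessels varied widely between rats, with sums of 418 to 1040 in MBP-EAE rats and 241 to 758 in healthy rats, and 1 of 8 was called (higher). The erythrocyte marker Hbb-b1 was lower (log2 fold change -3.30, adjusted p 0.000447), with linear signals of 10.4 to 52.3 in MBP-EAE rats, against 179 to 322 in healthy rats. The part of these cell types in the carrier results was not tested.

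The array of healthy rat 195 stood apart. The distance between the quartiles of its log2 values was 2.23, while it was 2.63 to 2.90 for the MBP-EAE arrays and 2.61 to 2.93 for the remaining healthy ones. Of the 17 carrier rows whose mean in the other healthy rats was at least 6, rat 195 had the lowest healthy value in 16 and the highest in 0, whereas of the 24 rows under 5 it had the lowest in 1 and the highest in 20. Carriers whose call or overlap turned on this rat are therefore given with and without it. The labels give no batch, but an arrangement of the arrays into 3 batches was recovered, in which batch 1 held rats 217, 241, 193 and 195, batch 3 held rats 218, 219 and 196, and batch 2 held rat 194 alone. Batch 3 thus held a single healthy rat, and its differences rest on that rat.

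**Figure D2:**
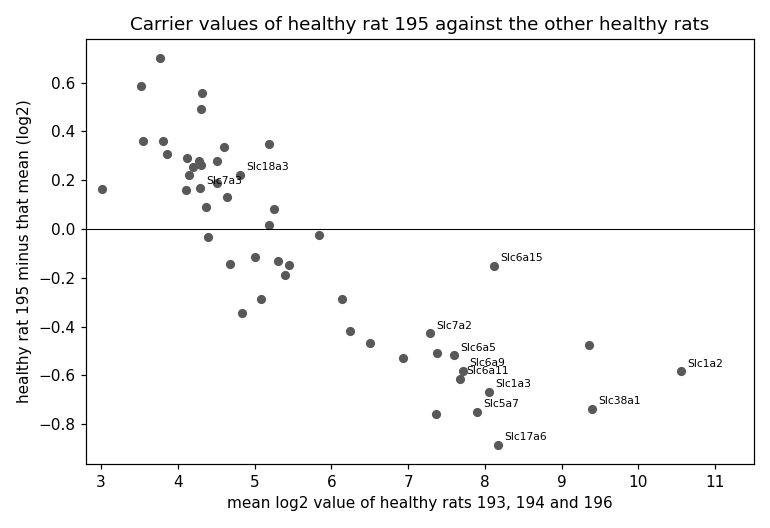
Each point is 1 of the 50 carrier rows, with its mean log2 value in healthy rats 193, 194 and 196 on the horizontal axis and the log2 value of healthy rat 195 minus that mean on the vertical axis. Bright carriers such as Slc17a6 and Slc1a2 lie below 0 and most dim carriers above 0, and in 16 of the 17 rows with a mean of at least 6 rat 195 was the lowest healthy rat.

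Promoter sequences are shown for 4 of the genes the results turn on, as RefSeq windows of the GRCr8 build of 300 bases around the start of transcription. A window was found for 38 of the 49 genes. The windows for Slc7a7 (chr15:31835634-31835933, minus strand) and Slc3a2 (chr1:215039621-215039920, minus strand, 1 of its 2 windows) are the promoters of a light chain and its heavy chain partner, and the capitals mark a match to TGACNNNGC, the core of the antioxidant response element, on either strand. In the window for Slc1a3 (chr2:59557759-59558058, minus strand, 1 of 3 overlapping windows) the capitals mark a match to the interferon-stimulated response element, read on the other strand. The window for Slc7a10 (chr1:96965872-96966171, plus strand), the carrier with the largest fall, held none of the 5 motifs searched. Neither did the windows of Slc7a8, Slc38a6 and Slc6a20a, which were called higher, nor those of Slc18a3 and Slc5a7, which were called lower. The 4 genes shown thus link no motif to a direction of change.
Slc7a7: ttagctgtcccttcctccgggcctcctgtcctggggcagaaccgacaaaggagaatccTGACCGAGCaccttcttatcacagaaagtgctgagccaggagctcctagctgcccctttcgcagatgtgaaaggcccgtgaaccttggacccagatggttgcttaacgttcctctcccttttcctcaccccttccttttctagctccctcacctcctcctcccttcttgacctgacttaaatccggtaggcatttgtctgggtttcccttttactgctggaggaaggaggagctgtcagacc
Slc3a2: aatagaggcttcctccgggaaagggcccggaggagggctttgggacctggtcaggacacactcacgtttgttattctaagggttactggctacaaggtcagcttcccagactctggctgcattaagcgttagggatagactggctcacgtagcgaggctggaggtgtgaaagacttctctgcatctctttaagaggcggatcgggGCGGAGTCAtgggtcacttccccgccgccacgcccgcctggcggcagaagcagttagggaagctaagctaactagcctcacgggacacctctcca
Slc1a3: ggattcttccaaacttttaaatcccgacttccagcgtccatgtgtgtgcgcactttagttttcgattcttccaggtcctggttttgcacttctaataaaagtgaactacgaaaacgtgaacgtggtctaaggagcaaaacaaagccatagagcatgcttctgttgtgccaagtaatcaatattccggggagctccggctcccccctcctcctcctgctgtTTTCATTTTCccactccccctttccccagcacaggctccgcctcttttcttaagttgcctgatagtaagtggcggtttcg
Slc7a10: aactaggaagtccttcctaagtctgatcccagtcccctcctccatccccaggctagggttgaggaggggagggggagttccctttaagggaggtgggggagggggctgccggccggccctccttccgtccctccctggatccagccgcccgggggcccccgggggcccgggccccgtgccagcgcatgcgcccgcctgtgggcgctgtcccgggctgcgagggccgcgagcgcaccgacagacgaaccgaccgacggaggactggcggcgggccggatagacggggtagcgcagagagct

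The motifs were searched on both strands, after the expression values were known, and the shares are a description of letters and not of bound factors. TGACNNNGC was found for 10 of the 38 carriers with a window, compared with 12.1% of the 33469 windows of all genes. It was present for 4 of 8 carriers that were higher in MBP-EAE (Slc7a7, Slc3a2, Slc6a6 and Slc36a1), for 0 of 4 that were lower and for 6 of 26 that were not called. Some genes have several windows, which raises a share counted by gene above one counted by window. The interferon-stimulated response element was found for Slc1a3 alone of the 38, compared with 3.92% of all windows. The amino acid response element core TGATGNAA was found for 3 of 38 carriers, none of them called (3.98% of all windows), the interferon gamma activated site TTCNNNGAA for 0 of 38 (8.87%), and the AP-1 site TGANTCA for 4 of 38 (7.33%), of which Slc6a5 was the only called one. The letters of AP-1 sites and of antioxidant response elements can overlap.

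Among the carriers that clear glutamate and aspartate, Slc1a3 was higher and the other 3 (Slc1a2, Slc1a1 and Slc1a6) were not called. Slc1a3, the carrier GLAST of astrocytes, had log2 values of 9.09, 8.91, 8.89 and 9.27 in MBP-EAE rats, against 8.34, 7.85, 7.39 and 7.98 in healthy rats. All MBP-EAE rats lay above all healthy rats, and healthy rat 195 was the lowest. The mean was 9.04 ± 0.18 in MBP-EAE and 7.89 ± 0.39 in healthy control (SD, n = 4 each), a log2 fold change of 1.15 (SE 0.19) or 2.22-fold, with an adjusted p of 0.00142. Slc1a2, the carrier GLT-1 that takes up most glutamate in the adult brain and is likewise astrocytic, had values of 10.03, 9.60, 10.19 and 9.77 in MBP-EAE rats, against 10.75, 10.52, 9.97 and 10.39 in healthy rats. Healthy rat 195 fell among the MBP-EAE rats, and the groups overlapped. The log2 fold change of Slc1a2 was -0.51 (95% interval -0.92 to -0.11) and was not called, with an adjusted p of 0.063, but the adjusted p was 0.0106 without rat 195 and 0.0486 without MBP-EAE rat 219. For Slc1a2 the size also depended on the scaling, at -1.02 (adjusted p 0.0034) when every array was given the same median and spread and -0.36 (adjusted p 0.144) with cyclic loess.

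The gap between the log2 values of Slc1a3 and Slc1a2 within a rat depends on the probes of each gene, so that only its difference between groups can be read. It was -0.94, -0.69, -1.30 and -0.50 in MBP-EAE rats, against -2.41, -2.67, -2.58 and -2.41 in healthy rats. The mean gap was -0.86 ± 0.35 in MBP-EAE and -2.52 ± 0.13 in healthy control (SD, n = 4 each), a difference of 1.66, and the groups did not overlap. This pair was chosen after its values were seen and was not tested. Slc1a1, which in neurones also takes up cysteine, had a log2 fold change of -0.02 (95% interval -0.28 to 0.24), and Slc1a6, best known from Purkinje cells, one of -0.19 (95% interval -0.43 to 0.06). Of the exchangers of small neutral amino acids, Slc1a4 (0.07) and the glutamine carrier Slc1a5 (0.09) were not called.

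The light and heavy chains of amino acid exchange held the largest rise and the largest fall among the carriers. Slc3a2, the heavy chain that brings most Slc7 light chains to the plasma membrane, had log2 values of 7.06, 7.26, 6.93 and 7.34 in MBP-EAE rats, against 6.63, 6.45, 6.04 and 6.44 in healthy rats. The groups did not overlap, with a log2 fold change of 0.76 (SE 0.14) or 1.69-fold and an adjusted p of 0.00371. Slc7a7, a partner of Slc3a2 that exports arginine and lysine in exchange for neutral amino acids and is found in macrophages as well as in gut and kidney, had values of 5.72, 5.57, 5.27 and 5.67 in MBP-EAE rats, against 4.07, 4.34, 4.45 and 4.18 in healthy rats. This was the largest rise of the 50 rows, from values close to the lower quartile of the arrays in the healthy rats. Slc7a7 averaged 5.56 ± 0.20 in MBP-EAE and 4.26 ± 0.17 in healthy control (SD, n = 4 each), a log2 fold change of 1.30 (SE 0.13) or 2.46-fold, with an adjusted p of 5.69e-05. Within batch 1 it was 1.44, and within batch 3 it was 1.24, on the same scale.

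Slc7a8, a light chain that exchanges neutral amino acids, had log2 values of 5.82, 5.89, 5.30 and 6.02 in MBP-EAE rats, against 5.19, 4.86, 4.89 and 4.96 in healthy rats. MBP-EAE rat 219 was the lowest of its group but still above every healthy rat, and the log2 fold change was 0.78 (SE 0.16, 1.72-fold, adjusted p 0.00504). Slc7a5, the light chain that carries large neutral amino acids across the blood-brain barrier and into dividing lymphocytes, had values of 4.84, 4.91, 4.70 and 4.99 in MBP-EAE rats, against 4.87, 4.72, 4.49 and 4.91 in healthy rats. The groups overlapped, and the log2 fold change of 0.11 (95% interval -0.15 to 0.38) was not called.

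Slc7a10, an exchanger of small neutral amino acids that carries D-serine and glycine, showed the largest fall among the carriers. Its log2 values were 4.94, 4.81, 5.17 and 4.62 in MBP-EAE rats, against 6.40, 6.05, 5.82 and 6.26 in healthy rats. The groups were separated by more than the spread within either of them, at 4.88 ± 0.23 in MBP-EAE and 6.13 ± 0.25 in healthy control (SD, n = 4 each). Its log2 fold change was -1.25 (SE 0.15), a 2.38-fold lower value, with an adjusted p of 0.00025, and it was -1.33 within batch 1 and -1.27 within batch 3. The remaining light chain rows, Slc7a9, Slc7a13 and both rows of Slc7a12, and the heavy chain Slc3a1, the partner of Slc7a9 in cystine uptake by kidney and gut, were not called. Of these light chain rows 3 were dim, which here means that both group means lay under 4.28, the highest lower quartile of any array.

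The cationic carriers included 1 called higher and 1 called lower. Slc7a2, an arginine carrier that in mouse macrophages is induced on activation and supplies arginine for nitric oxide, had log2 values of 8.78, 7.99, 8.67 and 8.14 in MBP-EAE rats, against 7.40, 7.33, 6.86 and 7.13 in healthy rats. All MBP-EAE rats were above all healthy rats, with rats 217 and 219 higher than rats 218 and 241. The log2 fold change was 1.21 (SE 0.20) or 2.32-fold, with an adjusted p of 0.00138. Slc7a3, a cationic carrier of neurones, had values of 3.78, 3.88, 4.00 and 3.91 in MBP-EAE rats, against 4.18, 4.35, 4.46 and 4.35 in healthy rats, without overlap. Its log2 fold change was -0.45 (SE 0.10, adjusted p 0.00756), but these values lay close to the lower quartile of the arrays, and the call was lost with batch as a term (adjusted p 0.0526). Slc7a1, the cationic carrier of most tissues, was not called, with a log2 fold change of -0.11 (95% interval -0.36 to 0.14).

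Of the 7 rows of the Slc38 family 1 was called. Slc38a6, a member of the glutamine carrier family, had log2 values of 6.04, 6.24, 5.70 and 6.15 in MBP-EAE rats, against 5.18, 5.23, 5.20 and 5.14 in healthy rats, whose SD was 0.04. Its log2 fold change was 0.84 (SE 0.12, 1.79-fold, adjusted p 0.000699). The other 6 Slc38 rows were not called, among them the bright carriers Slc38a1 (0.06) and Slc38a2 (-0.19), which take up glutamine into neurones and many other cells. With 1 median and spread for every array these were -0.35 (adjusted p 0.0194) for Slc38a1 and -0.61 (adjusted p 0.00504) for Slc38a2. The log2 values of Slc38a2 were 9.13, 8.88, 9.13 and 9.02 in MBP-EAE rats, against 9.51, 9.26, 8.88 and 9.29 in healthy rats. Only healthy rat 195 fell among the MBP-EAE values, and without it the log2 fold change of Slc38a2 was -0.31 (adjusted p 0.0557). Slc38a3, the carrier by which astrocytes release glutamine, had log2 values of 5.24, 5.20, 5.15 and 4.87 in MBP-EAE rats, against 5.57, 5.38, 5.30 and 5.39 in healthy rats. The groups did not overlap, but the log2 fold change of -0.30 had an adjusted p of 0.0765 and was not called.

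Slc6a20a, a carrier of proline and other imino acids, had log2 values of 5.35, 5.28, 5.49 and 5.28 in MBP-EAE rats, against 5.15, 4.62, 4.54 and 4.28 in healthy rats. Healthy rat 193 was the highest of its group and still below every MBP-EAE rat, and the log2 fold change was 0.70 (SE 0.17, 1.63-fold, adjusted p 0.0122). Slc36a1, a proton-coupled carrier of small amino acids on lysosomes, had values of 5.80, 5.52, 5.64 and 5.75 in MBP-EAE rats, against 5.50, 5.21, 5.17 and 5.19 in healthy rats. Rats 218 and 193 almost touched, the log2 fold change was 0.41 (SE 0.11, 1.33-fold, adjusted p 0.022), and the call was lost when healthy rat 194 (0.0644) or 196 (0.0647) or MBP-EAE rat 217 (0.0729) or 241 (0.0646) was left out and with batch as a term (0.0741). In the rat genome Slc36a1 lies beside Slc36a2, which was not called (-0.18), and the neighbours Slc38a1, Slc38a2 and Slc38a4 were likewise not called.

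Slc6a6, the taurine carrier, had log2 values of 7.44, 7.57, 7.15 and 7.77 in MBP-EAE rats, against 7.27, 6.86, 6.40 and 6.66 in healthy rats. Healthy rat 193 was above MBP-EAE rat 219. The log2 fold change was 0.68 (SE 0.19, 1.61-fold, adjusted p 0.0258), and the call was lost in 8 of 19 alternatives, in which the adjusted p was at most 0.0988. The creatine carrier Slc6a8 (0.03) and the neuronal proline carrier Slc6a7 (-0.23) were not called. Slc6a15, a carrier of branched-chain amino acids and proline that is mostly neuronal, had values of 7.14, 6.96, 7.35 and 7.27 in MBP-EAE rats, against 7.98, 7.97, 7.97 and 8.41 in healthy rats. Every MBP-EAE rat was below every healthy rat, rat 196 stood above the other healthy rats, and the log2 fold change was -0.90 (SE 0.13, a 1.87-fold lower value, adjusted p 0.000786). Slc6a18, known as a kidney carrier, was dim and not called.

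**Figure D3:**
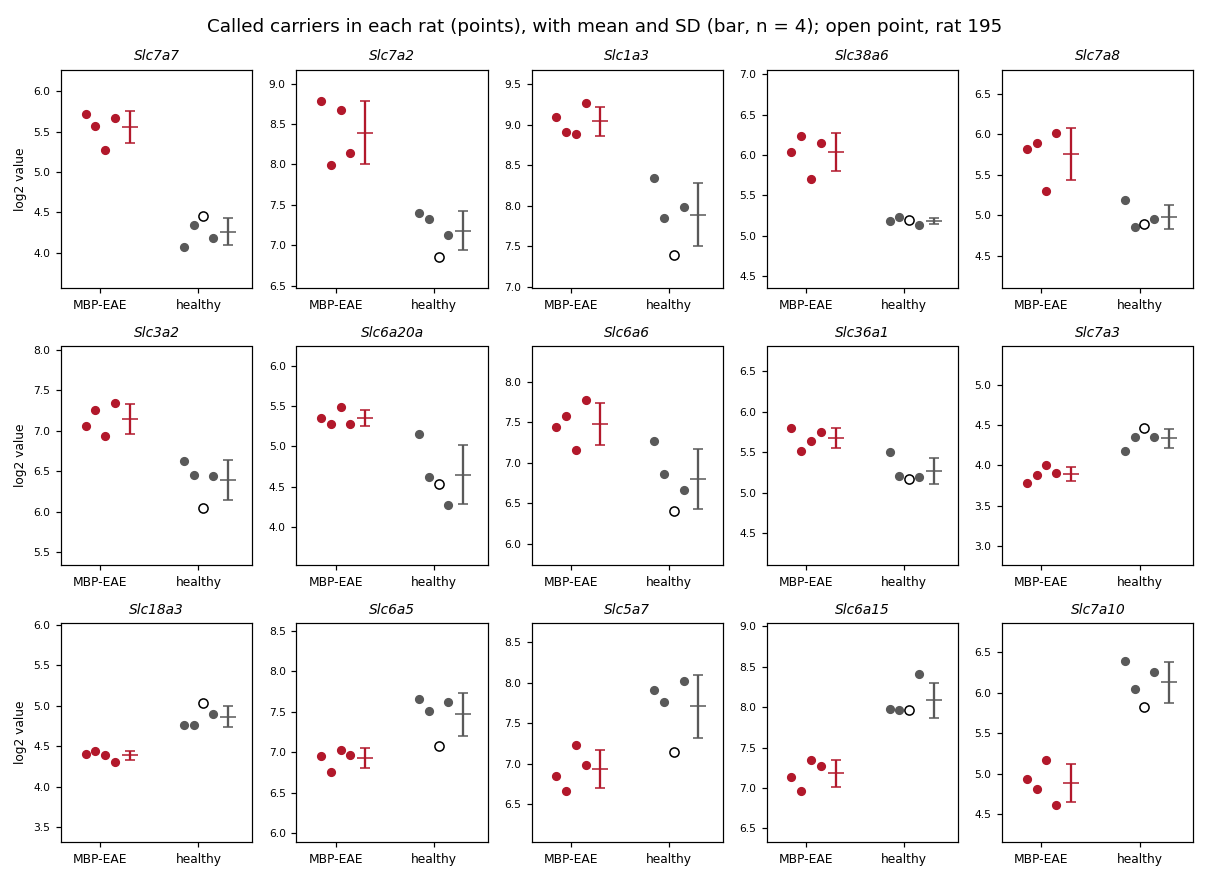
Log2 value of each called carrier in each rat (points), with the mean and SD of the group as a bar (n = 4 each); MBP-EAE is red on the left of each panel, healthy control grey on the right, and the open point is healthy rat 195. In 13 of the 15 panels the groups do not overlap, the exceptions being Slc6a6 and Slc5a7.

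Among the carriers that define a transmitter, both acetylcholine carriers and the neuronal glycine carrier Slc6a5 were called lower. The vesicular glutamate, GABA and monoamine carriers were not called, but their log2 fold changes were also below 0. That of Slc17a6 (-0.62) was larger in size than that of Slc6a5 (-0.54), so that the calls alone do not set the transmitters apart. For acetylcholine, the vesicular carrier Slc18a3 had log2 values of 4.41, 4.44, 4.39 and 4.31 in MBP-EAE rats, against 4.76, 4.76, 5.03 and 4.90 in healthy rats. No healthy rat reached down to the MBP-EAE rats, and the log2 fold change was -0.48 (SE 0.10, a 1.39-fold lower value, adjusted p 0.005). The MBP-EAE values of Slc18a3 lay near the lower quartile of the arrays. Slc5a7, which returns choline to the nerve ending, had values of 6.85, 6.67, 7.23 and 6.99 in MBP-EAE rats, against 7.91, 7.76, 7.15 and 8.03 in healthy rats. Only healthy rat 195 was below MBP-EAE rat 219, and the log2 fold change was -0.78 (SE 0.19, a 1.72-fold lower value, adjusted p 0.0152). Without rat 195 the log2 fold change of Slc5a7 was -0.97 (adjusted p 0.000761). The call was lost with batch as a term (adjusted p 0.0519) and in the 2 analyses that estimated the variance of each row on its own (0.0579 and 0.0806). Of the 5 motor neurone markers measured none was called, with a median log2 fold change of 0.05. Their sums were 277 to 359 in MBP-EAE rats and 219 to 302 in healthy rats. Isl1 and Vipr2 were dim, the brightest markers were Calca and Ret, and Chat is not named for a single row in the table used here. These markers therefore say little about the number of motor neurones, and their part in the values of the acetylcholine carriers was not tested.

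Glycine is cleared by Slc6a5 at the endings of glycine neurones and by Slc6a9 mainly in glia. Slc6a5 had log2 values of 6.95, 6.75, 7.03 and 6.97 in MBP-EAE rats, against 7.66, 7.51, 7.08 and 7.62 in healthy rats. Rat 195 was just above rat 219, the groups did not overlap, and the log2 fold change was -0.54 (SE 0.14, a 1.45-fold lower value, adjusted p 0.0172). The call was lost without healthy rat 196 (0.0556), without MBP-EAE rat 218 (0.0502), with batch as a term (0.0812) and when the variance was estimated for each row and group on its own (0.0806). Slc6a9 had values of 7.16, 6.96, 7.05 and 7.33 in MBP-EAE rats, against 7.86, 7.56, 7.14 and 7.74 in healthy rats. Rat 195 alone of the healthy rats fell among the MBP-EAE values, and the log2 fold change of -0.45 (95% interval -0.80 to -0.10) was not called with all rats as deposited (adjusted p 0.0622) but was called without rat 195 (adjusted p 0.00499). Slc6a9 was called in 6 of 19 alternatives, also with all rats after a further quantile normalization (0.00571) and with cyclic loess (0.047).

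For GABA, the astrocytic carrier Slc6a11 had log2 values of 7.08, 5.98, 7.24 and 6.32 in MBP-EAE rats, against 8.04, 7.31, 7.06 and 7.67 in healthy rats. Rats 218 and 241 were well below every healthy rat, whereas rats 217 and 219 were level with rat 195. The log2 fold change of -0.86 (95% interval -1.53 to -0.20) was not called, with an adjusted p of 0.0591, which became 0.0325 without rat 195 and 0.0329 without rat 219. Slc6a11 was called in 7 of 19 alternatives, also with all rats after a further quantile normalization (adjusted p 0.0348). Slc6a13, a GABA and taurine carrier found in the meninges, had values of 6.37, 5.98, 5.59 and 5.49 in MBP-EAE rats, against 5.67, 5.09, 5.53 and 4.79 in healthy rats. It was not called, with a log2 fold change of 0.58 and an adjusted p of 0.0984. The fibroblast marker Dcn had values of 9.25, 9.59, 8.07 and 7.82 in MBP-EAE rats, against 8.91, 7.12, 8.76 and 6.20 in healthy rats, and its part in the values of Slc6a13 was not tested. Slc32a1, which loads GABA and glycine into vesicles, had values of 5.37, 5.40, 5.81 and 5.52 in MBP-EAE rats, against 5.79, 5.95, 5.81 and 5.76 in healthy rats, with a log2 fold change of -0.30 (95% interval -0.56 to -0.04) and an adjusted p of 0.0844. MBP-EAE rat 219 was at the healthy level, and without it the adjusted p was 0.0256. With all rats the adjusted p of Slc32a1 was 0.0268 after a further quantile normalization.

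Glutamate is loaded into vesicles in the spinal cord mainly by Slc17a6. Its log2 values were 7.24, 6.93, 7.63 and 7.53 in MBP-EAE rats, against 8.38, 7.95, 7.29 and 8.19 in healthy rats. Rat 195 was again the only healthy rat among the MBP-EAE values. The log2 fold change of -0.62 (95% interval -1.15 to -0.09) had an adjusted p of 0.0836 with all rats as deposited and of 0.00633 without rat 195. Slc17a6 was called in 4 of 19 alternatives, also with all rats after a further quantile normalization (adjusted p 0.0303). Slc17a7, the vesicular glutamate carrier of cortex and of large sensory neurones, had values of 4.28, 4.25, 4.20 and 4.17 in MBP-EAE rats, against 4.20, 4.42, 4.56 and 4.22 in healthy rats. It was near the lower quartile of the arrays and was not called (-0.13, adjusted p 0.425), as was the dim Slc17a8 (-0.19). Slc17a5, which exports sialic acid from lysosomes, was not called, with a log2 fold change of 0.36 and an adjusted p of 0.11.

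The monoamine carriers were dim or close to it. Noradrenaline and serotonin neurones have their cell bodies in the brain stem and send axons into the cord. Slc18a2, which loads monoamines into vesicles, had log2 values of 4.15, 4.27, 4.37 and 4.09 in MBP-EAE rats, against 4.32, 4.44, 4.45 and 4.32 in healthy rats. The groups overlapped, and the log2 fold change was -0.16 (adjusted p 0.253). The uptake carriers of noradrenaline (Slc6a2, -0.15), dopamine (Slc6a3, -0.26) and serotonin (Slc6a4, -0.17) were not called, nor was Slc18a1 (-0.18), the vesicular carrier of endocrine cells. In all, 9 of the 50 rows were dim in both groups, and for these the arrays give no firm measurement of a difference.

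**Figure D4:**
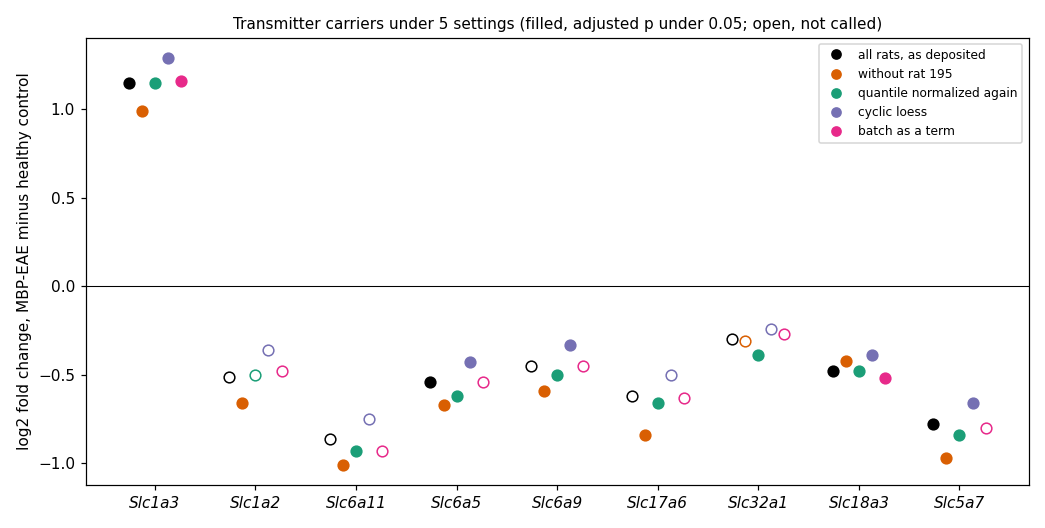
Log2 fold change (MBP-EAE minus healthy control, vertical axis) of 9 transmitter carriers under 5 settings, shown by colour; filled points have an adjusted p under 0.05 and open points do not. Slc1a2, Slc6a11, Slc6a9 and Slc17a6 are called without healthy rat 195 and not with all rats as deposited. After a further quantile normalization of all rats Slc6a11, Slc6a9, Slc17a6 and Slc32a1 are called, as is Slc6a9 with cyclic loess.

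Enzymes and regulators of the same pathways were examined from lists of genes. Of 70 measured genes 27 (38.6%) were called, compared with 25.9% of all rows, 14 of them higher (11.3% of all rows) and 13 lower (14.6% of all rows). Their median log2 fold change was -0.14, compared with -0.10 over all rows. The GABA-forming enzymes Gad2 (-0.83, a 1.78-fold lower value, adjusted p 0.00479) and Gad1 (-0.72, a 1.65-fold lower value, adjusted p 0.00141) were lower without overlap, and Abat, which breaks GABA down, was not called (-0.14). Summed markers of inhibitory interneurones, a list that holds both Gad genes, were 190 to 278 in MBP-EAE rats, against 359 to 467 in healthy rats. Of 5 glutamate and glutamine enzymes, Glud1, which feeds glutamate into the citric acid cycle (-0.47, adjusted p 0.0136), and the glutaminase Gls2 (-0.41, adjusted p 0.0172) were lower and none was higher. Of 7 glycine and serine enzymes, Phgdh, which starts serine synthesis (-0.67, adjusted p 0.0027), and Dld (-0.62, adjusted p 0.00274) were lower. Bche, which breaks down choline esters, was lower (-0.89, a 1.85-fold lower value, adjusted p 5.16e-05), and Ddc was the only 1 of 9 monoamine enzymes called (-0.62, adjusted p 0.00216), while Th was dim and not called (-0.19).

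Of 11 genes of arginine, polyamine and nitric oxide metabolism 4 were higher and 1 lower. Sat1, which acetylates polyamines, had log2 values of 9.79, 9.69, 9.53 and 10.19 in MBP-EAE rats, against 7.87, 7.93, 7.48 and 7.84 in healthy rats, a log2 fold change of 2.02 (SE 0.16, 4.05-fold, adjusted p 9.12e-06). Ass1, which rebuilds arginine from citrulline, was 2.94-fold higher (adjusted p 4.65e-05), the spermidine synthase Srm had a log2 fold change of 0.51 (adjusted p 0.0169) and the inducible nitric oxide synthase Nos2 one of 0.43 (adjusted p 0.045). Arg2 was lower (-0.39, adjusted p 0.0157) and Arg1 was not called (-0.26, adjusted p 0.103). Of 12 cystine and glutathione genes 4 were higher, namely Hmox1, which degrades haem (1.56), Gpx1, which reduces peroxide (1.28), Nqo1, which reduces quinones (0.73), and Cdo1, which oxidises cysteine (0.70). Gclm, the modifier subunit of glutathione synthesis, was lower (-0.64, adjusted p 0.00128), and the catalytic subunit Gclc was not called (-0.18).

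Of 8 genes of tryptophan and branched-chain amino acid breakdown 3 were higher and none lower. Kmo, which directs kynurenine towards quinolinic acid, had log2 values of 4.89, 6.12, 5.09 and 5.71 in MBP-EAE rats, against 3.59, 4.17, 3.95 and 3.66 in healthy rats (log2 fold change 1.61, 3.05-fold, adjusted p 0.00129). Kynu (0.45, adjusted p 0.0317) and Bcat2 (0.41, adjusted p 0.0134) were also higher, and Ido1, which starts the kynurenine pathway, was not called (0.03). Of the 8 genes 4 were dim in both groups, among them Kynu and Ido1, for which the arrays give no firm measurement of a difference. Of 4 creatine genes only Gamt was called (-0.58, adjusted p 0.00434). Genes that respond to a lack of amino acids moved both ways. Of 10 measured, Nupr1 (1.10), Atf3 (0.63) and Cebpb (0.56) were higher and Vldlr (-0.75) and Ddit3 (-0.40) lower, while Asns, the asparagine synthetase often used to read out this response, was not called (-0.19, adjusted p 0.358). Atf3 too was dim in both groups.

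How many carriers were called lower depended on the scaling of the arrays, as it did for all rows. When every array was given the same median and spread, 14 carriers were called lower (23.1% of all rows) and 9 higher (9.68% of all rows). The share of higher values among all called rows was then 29.5%, against 43.7% as deposited. With cyclic loess 7 carriers were lower (11.3% of all rows) and 10 higher (15.6% of all rows), and that share was 58.1%. Of the 15 called carriers 8 (Slc7a7, Slc7a2, Slc1a3, Slc38a6, Slc3a2, Slc7a10, Slc6a15 and Slc18a3) were called in each of 19 alternative analyses. With batch as a term 7 carriers were higher (8.12% of all rows) and 3 lower (6.88% of all rows). The calls of Slc36a1, Slc5a7, Slc6a5, Slc6a6 and Slc7a3 were lost.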

How the data were processed

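Spinal cord RNA of 8 rats was hybridised to Affymetrix Rat Exon 1.0 ST arrays, 1 for each rat. Per the methods, background correction by RMA was adjusted for GC content and followed by quantile normalization and log2 transformation, and the authors then took the mean of a gene's core probe sets in the Partek software. The submitters' processing notes name the rat build rn4. The deposited log2 values of 8793 rows were used as they stand, and the groups were taken from the labels. The platform table gave 1 gene symbol for 7603 rows, several for 409, and did not list 781.

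A linear model with a group term alone was fitted to every row (lmFit, then eBayes, of limma 3.58.1 in R 4.3.3). Batch was left out because the methods, whose analysis of variance also examined it, report no significant batch effect. Differences are MBP-EAE minus healthy control. The p-values were adjusted by the Benjamini-Hochberg method over the 8793 rows, with a threshold of 0.05. Folds are 2 to the power of the log2 difference. The labels do not say how the rats were housed or processed together, so that p-values measure the spread between these 8 rats, and with 8 arrays their precision is limited by that number. The batches were recovered as the arrangement of arrays, out of 3899 tried, whose analysis of variance came closest to the p-values of 666 rows in the gene lists of the study, and those lists served no other purpose. The median absolute difference of log10 p was 0.000321 for this arrangement and 0.0841 for the next. The p-values of those lists were thus matched by a model with a batch term, which the main fit here does not have.

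The carriers, the pathway and marker lists and the motifs were chosen with earlier results of these data known. By the rule for named genes, values in every rat are given for called carriers without overlap and for the carriers that define a transmitter; called carriers with overlap, the called genes of each pathway list with the largest change (up to 4) and the defining enzymes are named as well. Outside this rule, and after their values were seen, Slc6a13, Slc38a2, Slc38a3, Dcn, Sat1 and Kmo are shown in every rat and Abat, Arg2, Gclm and Ddit3 are named. Alternatives were array weights, another variance prior, Welch's test, an equal-variance t-test, a filter on dim rows and 3 further normalizations. The remaining ones were rows with a single symbol, the mean of a gene's rows, batch as a term and each rat left out in turn. Fits within batch 1 and batch 3 were added after the data had been seen. The procedure was tested on simulated data with 200 changed rows. Tables were handled with pandas 2.3.3 in Python 3.11.15 and figures drawn with matplotlib 3.10.9. Promoter sequences are those of RefSeq (GRCr8), while no coordinate of the array's own build is given.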

Additional observations from a re-analysis of the deposited data

Results flagged for a closer look

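In 7 of the 100 sets of 4 values examined (50 rows in each group), 1 rat stood far from the other 3, where chance gives about 1 such set in 20. Healthy rat 196 had the highest Slc6a15 value of its group, 8.41, against 7.98 in the nearest healthy rat. The log2 fold change of Slc6a15 was -1.25 within batch 3, which held rat 196, and -0.77 within batch 1, and this difference was not tested. Healthy rat 193 had the highest Slc36a1 value of its group, 5.50, against 5.21 in the nearest rat, and lay next to the lowest MBP-EAE rat. The other 5 sets were of rows at the dim end of the arrays. MBP-EAE rat 218 was the highest of its group for Slc6a18 (3.69, nearest 3.44), Slc7a9 (3.88, nearest 3.75) and 1 row of Slc7a12 (4.13, nearest 3.75). Healthy rat 195 was the highest of its group for the same row of Slc7a12 (4.46, nearest 3.81) and for Slc17a8 (4.11, nearest 3.56).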

How the results depend on the processing

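The carriers called lower, 6 as deposited, numbered 15 with array weights (25.3% of all rows were lower, against 14.6% as deposited), 12 after a further quantile normalization (19.4%), 14 when arrays were given 1 median and spread (23.1%), 3 with batch as a term (6.88%), 1 within batch 1 (0.489%) and 2 within batch 3 (1.75%). The carriers called higher, 9 as deposited, numbered 1 within batch 1 (4.08% of all rows) and 2 within batch 3 (4.50%). Batch 3 holds 1 healthy rat, which is assumed to vary like the 2 MBP-EAE rats of that batch, so that its fit says little about stability. With 1 rat left out in turn, 7 to 10 were higher and 5 to 10 lower. The 10 higher were counted without healthy rat 193 (12.1% of all rows), and 7 for example without healthy rat 194 (9.53%). The highest count of lower carriers was without healthy rat 195 (10, with 16.4% of all rows lower). The next was without MBP-EAE rat 219 (9, with 11.7%), and the lowest, 5, came for example without MBP-EAE rat 218 (10.8%). Welch's test called 6 higher and 4 lower, without Slc7a8 (adjusted p 0.0511), Slc6a20a (0.102), Slc5a7, Slc6a5 and Slc6a6, and the methods' t-test called 8 and 5, without Slc5a7 and Slc6a6. Carriers wholly below the healthy values, 6 as deposited (17.3% of all rows), numbered 13 after a further quantile normalization (20.7%) and 20 with 1 median and spread (24.7%), and 6 to 12 with 1 rat left out (12 without rat 195, 22.7% of all rows; 11 without rat 218, 21.2%; 10 without rat 219, 20.6%). Of the 70 pathway genes, 14 higher and 13 lower as deposited, 8 were higher with Welch's test and 9 with batch as a term, 22 were lower with array weights and 24 with 1 median and spread, and 5 higher and 0 lower within batch 1 and 4 higher and 0 lower within batch 3; leaving out 1 rat gave 11 to 15 higher and 11 to 17 lower. The cause of these shifts was not tested.

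Under the 3 further normalizations no called carrier changed sign, and 14 carriers that were not called passed the threshold in at least 1 alternative. The sign of carriers that were not called turned in these cases, given as log2 fold changes. Slc38a1 was -0.02 with array weights, -0.35 with 1 median and spread (adjusted p 0.0194), -0.12 to 0.20 with 1 rat left out (-0.12 without rat 195) and -0.03 within batch 3. Slc6a8 was -0.04 after quantile normalization, -0.18 with 1 median and spread, -0.15 to 0.19 with 1 rat left out (-0.15 without rat 195) and -0.22 within batch 3. Slc7a13 was 0.05 after quantile normalization, 0.06 with cyclic loess, 0.11 with 1 median and spread, -0.12 to 0.02 with 1 rat left out (above 0 without rat 219 or 196, and at 0.00 without rat 195), and 0.02 within batch 1. Slc38a5 was 0.04 after quantile normalization, 0.07 with cyclic loess, 0.02 with 1 median and spread, -0.09 to 0.05 with 1 rat left out (above 0 without rat 195 or 241), and 0.17 within batch 3. Slc1a1 was 0.05 with cyclic loess, -0.09 to 0.05 with 1 rat left out (above 0 without rat 193 or 219), and 0.04 within batch 1. Slc3a1 was 0.05 with cyclic loess, -0.11 to 0.01 with 1 rat left out (above 0 without rat 241) and 0.20 within batch 3, and 1 row of Slc7a12 was -0.21 to 0.07 with 1 rat left out (above 0 without rat 195) and 0.17 within batch 3. Within batch 3, Slc6a18 was 0.12, Slc1a5 -0.12, Slc36a2 0.21, Slc1a4 -0.18, Slc38a7 -0.18, Slc7a5 -0.10, Slc1a6 0.01 and Slc17a8 0.06. Without rat 195 Slc1a4 was at -0.00. No paired analysis was possible because the groups share no replicate numbers.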
